A study of Mus musculus with 6 samples.

Results

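Group 1 innate lymphoid cells (ILC1) of the mouse liver were described here through the transcription factors that set them apart from natural killer (NK) cells and from other innate lymphoid cells. The set was fixed by name and held 10 genes: Tbx21, Eomes, Zfp683, Prdm1, Gata3, Rora, Id2, Nfil3, Tox and Zeb2. Of these, 9 were matched by symbol among the 24091 genes of the count table, and all 9 passed the filter on low counts. Zfp683, which encodes Hobit, a factor of tissue residency, was not analysed here. ILC1 came from the livers of C57BL/6 mice in both groups. AML mice had been injected intravenously with 1000000 cells of C1498, a mouse leukaemia line that grows in C57BL/6 hosts, and healthy mice had received none. Both groups carry the label of day 14 after tumour and had 3 libraries each, called healthy 1 to 3 and AML 1 to 3. No label gives a genetic alteration, the sex or age of the animals, the gate used to isolate the cells, or whether a library held cells of 1 animal or of a pool. All p-values here rest on how far libraries of a group differ, and part of that spread may be technical.

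ILC1 and NK cells both make interferon gamma and both depend on the T-box factor T-bet, the product of Tbx21. NK cells also need Eomes, a close relative of T-bet, while liver ILC1 are known to develop without it and to rely on residency factors such as Blimp-1, the product of Prdm1, and Hobit. Upstream of both cells, Nfil3, Tox and the inhibitor Id2 act in the innate lymphoid progenitor, where Id2 binds E proteins and keeps them off DNA. Gata3 and Rora are best known from group 2 innate lymphoid cells, and Zeb2 from the last steps of NK cell maturation, downstream of T-bet.

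Total counts ran from 45135093 to 51284691 reads per library, so that 3 reads, the limit that a count of 0 allows, stood at 0.0574 to 0.0641 CPM (reads of a gene relative to the normalised library size, scaled to 1000000; counting error only). The 8 surface markers of liver ILC1, which include Itga1, Cd200r1, Cxcr6 and Ncr1, summed to 5337 to 5593 CPM in healthy and 4995 to 5487 CPM in AML libraries. Ncr1 and Klrb1c were the most abundant of the 8 in the authors' deposited table, at a log2 CPM of 10.66 and 10.60. The sum therefore says little about the others and does not by itself tell ILC1 from NK cells. The 10 NK cell markers summed to 246 to 310 CPM in healthy and 278 to 297 CPM in AML libraries. Among them Klra4 was at 0 reads in every library and Cma1 at 0 in the healthy ones. Others were clearly expressed. In the authors' deposited table Klra9 and Itgam were the most abundant of them, at a log2 CPM of 7.15 and 6.52. The other NK cell markers found there were at or below 3.42. Markers of ILC2 summed to at most 4.18 CPM in any library, with Il5 at 0 throughout. Markers of ILC3 summed to at most 8.08 CPM, with Il22, Il17a and Ccr6 at 0 throughout. Healthy 1 stood apart from the other healthy libraries in the summed markers of macrophages and monocytes. AML 1 stood apart from the other AML libraries in Nfil3 and in single genes of stimulation and the clock. Those single genes were picked after their values were seen. Both departures are given with the members they touch.

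The factors spanned more than 3 orders of magnitude in level, in nearly the same order in every library. Levels of different genes are compared here as CPM per kilobase of gene length. Id2 was the most abundant, at 1534 ± 286 CPM per kilobase in healthy and 1516 ± 212 in AML libraries (SD, n = 3 each). It lay above 99.8% of the tested genes on this scale. Tbx21 came next, at 274 ± 24.1 in healthy and 306 ± 15.6 CPM per kilobase in AML libraries. Nfil3 was the third, at 167 ± 4.79 and 105 ± 49.2 CPM per kilobase. Gata3 followed at 63.4 ± 3.56 and 61.0 ± 3.07, then Tox at 26.7 ± 1.91 and 29.6 ± 0.565, and Prdm1 at 10.6 ± 1.33 and 8.90 ± 1.03 CPM per kilobase. For these 6 genes no library put any gene above its neighbour in that order. Rora and Eomes were not separated by their spread. Rora had 2.25 to 3.34 CPM per kilobase in healthy and 2.34 to 5.26 in AML libraries, and Eomes 1.19 to 2.44 and 1.42 to 4.09. In AML 2 Eomes stood above Rora. Zeb2 was the least abundant in every library, at 0.141 to 0.639 CPM per kilobase in healthy and 0.635 to 1.27 in AML libraries.

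**Figure D1:**
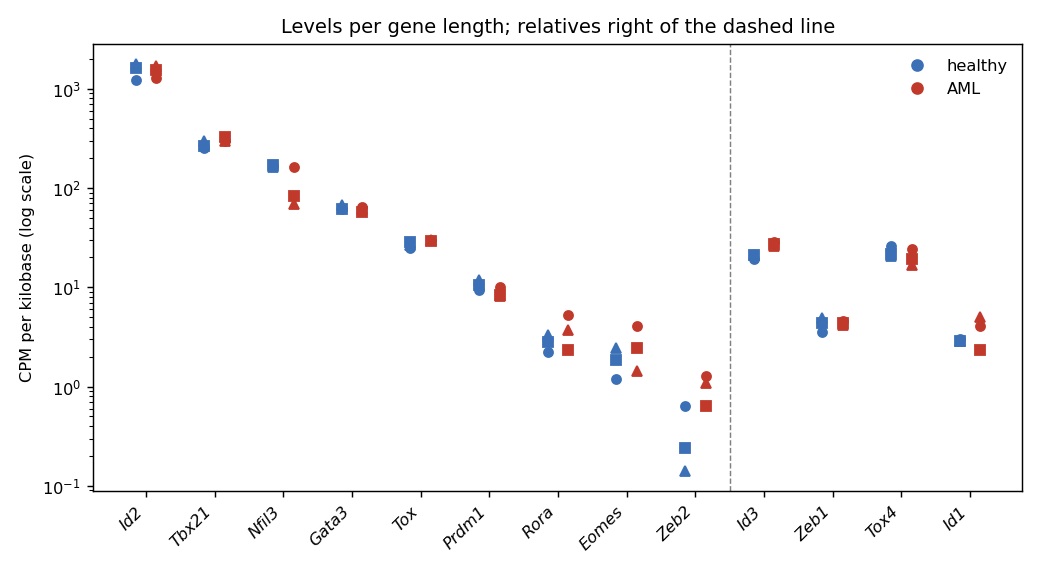
Level of each factor in CPM per kilobase on a log axis, 1 point per library (blue healthy, red AML; circles, squares and triangles are libraries 1, 2 and 3 of a group), with 4 relatives right of the dashed line. Id2 and Tbx21 lead in all 6 libraries, and Zeb2 is the lowest of the 9 factors.

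By the test of AML against healthy libraries, none of the 9 factors passed. The edgeR quasi-likelihood test called 0 of 9 at a Benjamini-Hochberg adjusted p of 0.05, where it called 0% of all 12469 genes. DESeq2, the likelihood ratio test of edgeR and limma-voom also called 0 of the 9, against 1.15%, 0.802% and 0% of all genes. At an unadjusted p under 0.05 there were 2 members, Zeb2 higher and Nfil3 lower in AML, against 8.84% of all genes in either direction. The groups did not overlap for Nfil3, lower in AML, where 7.34% of all genes were so placed, and for Tox, higher in AML, where 8.2% were. In either direction this held for 2 of 9 members and 15.5% of all genes. The 9 also gave 0 calls with upper quartile size factors, no filter and a stricter filter, which called 0.00802%, 0.012% and 0.0097% of all genes. The median log2 fold change of the 9 was 0.15, with 5 positive and 4 negative, and that of all tested genes was 0.01. In the authors' deposited table, which holds 8 of the 10 factors and not Zeb2, 0 of the 8 had an FDR under 0.05.

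**Figure D2:**
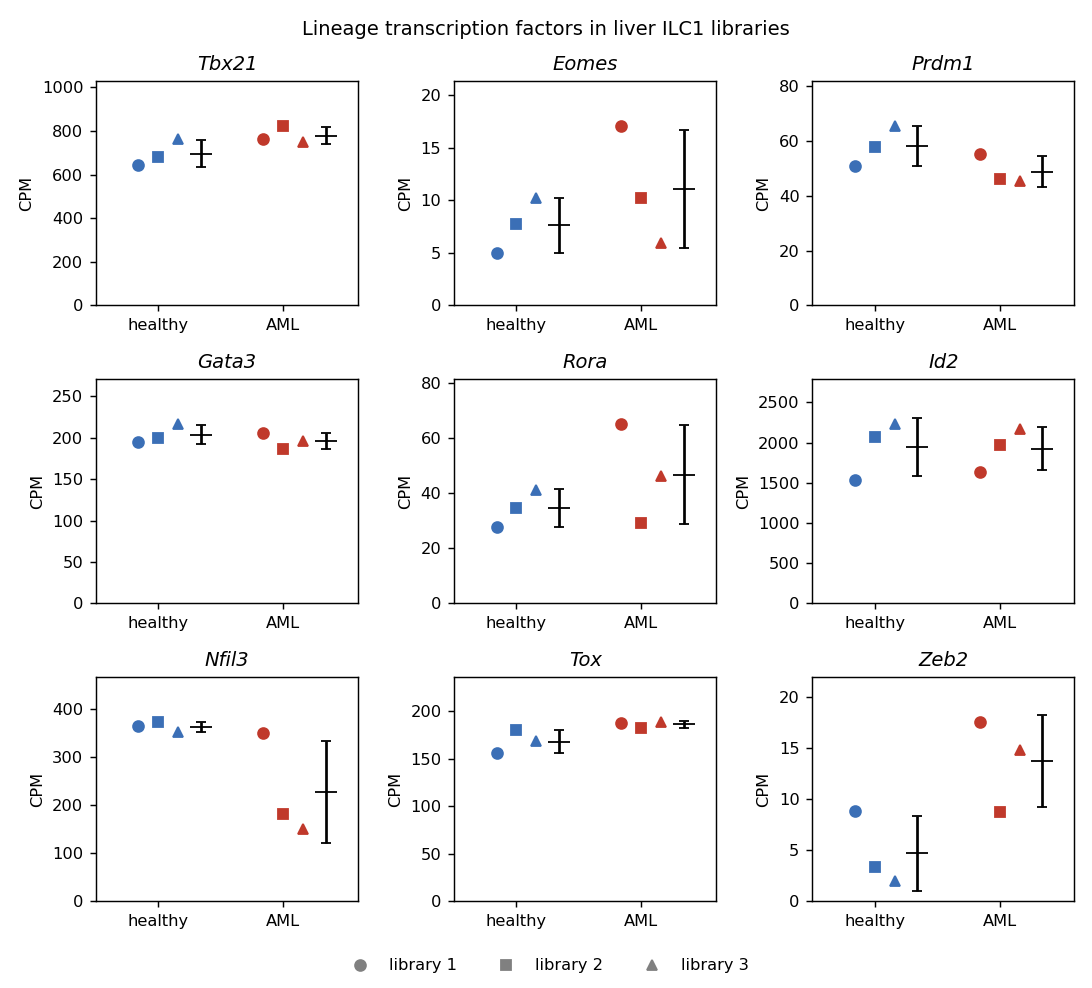
CPM of each of the 9 factors in each library (vertical axes start at 0; circles, squares and triangles are libraries 1, 2 and 3 of a group; bars are mean ± SD, n = 3). Nfil3 is at 350 to 374 CPM in 4 libraries and stands at 182 CPM in AML 2 and 151 CPM in AML 3, and Zeb2 is high in the AML libraries and in healthy 1.

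Tbx21 encodes T-bet, the factor that ILC1 and NK cells share. It measured 644, 682 and 764 CPM in healthy 1 to 3 and 763, 824 and 749 CPM in AML 1 to 3. The groups overlapped, because healthy 3 lay above AML 1 and AML 3. AML minus healthy, the log2 fold change was 0.16 ± 0.09 (SE), with a 95% interval from -0.04 to 0.36 and an edgeR quasi-likelihood adjusted p of 0.602. Left-out libraries took it from 0.10 to 0.22. In the authors' deposited table the log2 fold change was 0.17.

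Eomes, the T-box factor of NK cells, measured 4.96, 7.72 and 10.2 CPM in healthy 1 to 3 and 17.1, 10.3 and 5.93 CPM in AML 1 to 3. The AML libraries spanned a 2.88-fold range that held most of the healthy values, and 98.1% of 9301 genes at a mean of 5 CPM or more varied less among AML libraries. On the log2 scale AML minus healthy was 0.54 ± 0.41 (SE), with an interval from -0.41 to 1.49 and an edgeR quasi-likelihood adjusted p of 0.688. It was 0.09 without AML 1 and 0.84 without AML 3, the lowest and highest with 1 library left out, and -0.14 without both healthy 1 and AML 1. Among NK cell markers Itga2, the integrin CD49b, stayed between 8.91 and 11.5 CPM in all 6 libraries. S1pr5, a receptor of NK cell egress, measured 9.08, 6.82 and 5.15 CPM in healthy 1 to 3 and 14.1, 6.49 and 7.97 CPM in AML 1 to 3. The summed NK cell markers were 278 CPM in AML 1, where Eomes was highest, and 270 CPM in healthy 1, where it was lowest. Klra9 and Itgam were the most abundant of these markers, so the sum says little about those at lower levels, such as S1pr5.

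Within each library the level of Tbx21 per kilobase was 73.2 to 213 times that of Eomes. The lowest of these ratios belonged to AML 1 and the highest to healthy 1, with AML 3 at 207. On the log2 scale the ratio was 7.28 ± 0.40 in healthy and 6.97 ± 0.75 in AML libraries (SD, n = 3 each), a difference of -0.31 with an exact two-sided permutation p of 0.6. With 3 libraries a group the smallest p such a test can give is 0.1. Of the other T-box genes, Tbx6 stood at 0.543 to 1.56 CPM and Tbr1 at 0 to 0.0608 CPM.

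Prdm1 encodes Blimp-1, a repressor that holds lymphocytes in tissue. It measured 50.9, 57.7 and 65.5 CPM in healthy 1 to 3 and 55.4, 45.9 and 45.2 CPM in AML 1 to 3. AML 2 and AML 3 lay below every healthy library, and AML 1 lay among them. The difference on the log2 scale was -0.25 ± 0.12 (SE), with an interval from -0.54 to 0.04 and an edgeR quasi-likelihood adjusted p of 0.586. It was -0.43 without both healthy 1 and AML 1, at an adjusted p of 0.0815. Its relatives Prdm2, Prdm4 and Prdm15 had log2 fold changes of -0.04, -0.20 and 0.19.

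A list of genes that Blimp-1 and Hobit are known to repress, most of them for egress from tissue, held 6, and all were tested. None passed over all genes by edgeR quasi-likelihood, and 5 had a positive fold change. Their median log2 fold change was 0.44. It was 0.18 without AML 1, 0.71 without healthy 1 and 0.23 without both. The smallest p belonged to Tcf7, a factor of stem-like lymphocytes, which measured 61.7, 68.5 and 82.3 CPM in healthy 1 to 3 and 110, 80.7 and 96.0 CPM in AML 1 to 3. S1pr5 had a log2 fold change of 0.44 ± 0.34 (SE). Klf2, which drives egress receptors, ran from 78.8 to 245 CPM in AML libraries and from 119 to 209 CPM in healthy ones, with a log2 fold change of -0.11 ± 0.40 (SE).

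Gata3 kept nearly one level across both groups. It measured 195, 199 and 217 CPM in healthy 1 to 3 and 206, 186 and 196 CPM in AML 1 to 3, with a coefficient of variation of 5.61% in healthy and 5.03% in AML libraries. The fitted log2 fold change was -0.06 ± 0.08 (SE), with an interval from -0.23 to 0.12. Its relatives Gata1, Gata2 and Gata4 were at or below 0.189 CPM in every library. Gata6 measured 0.602 to 1.01 CPM in healthy and 0 to 0.210 CPM in AML libraries, and the log2 difference was -2.66 ± 0.98 (SE; edgeR quasi-likelihood adjusted p = 0.521). These are few reads, and Gata6 is known from peritoneal macrophages and non-immune cells.

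Rora, a nuclear receptor needed by ILC2, measured 27.8, 34.7 and 41.3 CPM in healthy 1 to 3 and 65.2, 29.0 and 46.2 CPM in AML 1 to 3. AML 1 and AML 3 lay above every healthy library and AML 2 among them. AML minus healthy, the log2 fold change was 0.43 ± 0.28 (SE), with an interval from -0.21 to 1.08 and an edgeR quasi-likelihood adjusted p of 0.646. It was 0.12 without AML 1 and 0.68 without AML 2, the lowest and highest with 1 library left out, and -0.02 without both healthy 1 and AML 1. Without AML 2 the unadjusted p was 0.0153 and the adjusted p 0.755. Gata3 exceeded Rora per kilobase in every library, by 12.2 times in AML 1 and by 16.4 to 27.0 times in the others. The difference of this log2 ratio between the groups was -0.43 with an exact permutation p of 0.3, where the smallest possible is 0.1. It was -0.19 without AML 1 and -0.70 without AML 2.

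Of 14 ILC2 genes known to depend on Gata3 or Rora, 8 were tested and 0 passed by edgeR quasi-likelihood, with 0 at an unadjusted p under 0.05 in either direction. The median log2 fold change was 0.22. Of those untested, Il5 had no read, and Il1rl1, Il13, Il4, Il9r and Il17rb were at or below 0.547 CPM in every library. Areg, the growth factor amphiregulin, had the smallest p, at 0.519 to 0.764 CPM in healthy and 0.153 to 0.470 CPM in AML libraries. Il2ra, the high-affinity interleukin 2 receptor chain, measured 10.9 to 15.6 and 14.0 to 24.9 CPM. Hpgds, the haematopoietic prostaglandin D synthase, measured 0.302 to 1.06 and 0.577 to 2.92 CPM.

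Id2, the inhibitor that all innate lymphoid cells need, measured 1538, 2069 and 2233 CPM in healthy 1 to 3 and 1634, 1973 and 2165 CPM in AML 1 to 3. The library numbered 1 was the lowest in each group, and the groups overlapped over almost their whole range. On the log2 scale AML minus healthy was -0.02 ± 0.15 (SE), with an interval from -0.38 to 0.34. It turned positive, at 0.00602, with upper quartile size factors. Id3, a relative that T and NK cells also express, measured 18.5, 19.9 and 20.3 CPM in healthy 1 to 3 and 27.0, 25.7 and 24.9 CPM in AML 1 to 3. The groups did not overlap, and the log2 fold change of Id3 was 0.40 ± 0.10 (SE) with an unadjusted p of 0.0036 and an edgeR quasi-likelihood adjusted p of 0.399. Id1 stood at or below 4.67 CPM and Id4 at or below 0.166 CPM. Id2 exceeded Id3 per kilobase 62.3 to 82.5 times in healthy and 45.4 to 65.0 times in AML libraries. The log2 of this ratio differed by -0.41 between the groups, with an exact permutation p of 0.2, where the smallest possible is 0.1, and the groups overlapped.

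Among the E proteins that Id2 binds, Tcf3 and Tcf12 had log2 fold changes of -0.05 and -0.03. Tcf4, which plasmacytoid dendritic cells express highly, measured 14.2 to 20.4 CPM in healthy and 19.6 to 24.7 CPM in AML libraries, with a log2 fold change of 0.41 ± 0.17 (SE). Markers of dendritic cells were also higher in the AML libraries, with a sum of 1236 to 1413 CPM against 932 to 973 CPM and a positive fold change for 13 of 14 tested genes. Their part in the Tcf4 difference was not tested. Of 10 genes known as driven by E proteins 6 were tested, with 5 positive, a median log2 fold change of 0.45 and 0 past the edgeR quasi-likelihood threshold. At an unadjusted p under 0.05 by edgeR quasi-likelihood, 3 of the 6 were higher in AML, against 5.08% of all genes. Id3 and Tcf7, whose values are given above, were among them. Rag1 and Rag2 had no read in any library, and Dntt and Ptcra were at or below 0.0831 CPM.

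Nfil3, a basic leucine zipper repressor needed for NK cell development and a part of the circadian clock's output, stood at one level in 4 libraries and well below it in the other two. It measured 365, 374 and 353 CPM in healthy 1 to 3, which agree within 1.06-fold, and 350, 182 and 151 CPM in AML 1 to 3. AML 1 lay just under the lowest healthy library, and AML 2 and AML 3 lay far below it. The coefficient of variation was 2.86% among healthy and 47.0% among AML libraries, where 97.8% of 9301 genes at a mean of 5 CPM or more varied less. The difference on the log2 scale was -0.68 ± 0.28 (SE), with an interval from -1.33 to -0.02, an unadjusted p of 0.0439 and an edgeR quasi-likelihood adjusted p of 0.558. Without AML 1 it was -1.13 (adjusted p = 0.00577), and the test called 1.15% of all genes. With neither healthy 1 nor AML 1, the value was also -1.13. Its adjusted p was then 0.00109, where 3.54% of all genes were called. Over all 16 alternatives the adjusted p ran from 0.00109 to 0.82. In the authors' deposited table its log2 fold change was -0.67, with an FDR of 0.202.

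The genes closest to Nfil3 across the 6 libraries, by Pearson correlation of log2 CPM among 9300 genes, were Maff at 0.998, Sqstm1 at 0.996, Syf2 and Mrpl46 at 0.995 and Mafk at 0.994. These values describe points from 2 groups with 3 libraries each, and Nfil3 was added to this search after its values were seen. Maff, a small MAF protein of the same leucine zipper class, measured 77.4, 88.6 and 80.5 CPM in healthy 1 to 3 and 76.8, 25.9 and 20.4 CPM in AML 1 to 3. Sqstm1, the autophagy receptor p62, measured 1019, 1048 and 1039 CPM in healthy 1 to 3 and 1050, 553 and 499 CPM in AML 1 to 3. Both genes split AML 1 from AML 2 and AML 3 as Nfil3 did.

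Bhlhe40, a repressor of the clock that T cells induce on stimulation, had the same split. It measured 2017, 2724 and 2197 CPM in healthy 1 to 3 and 2143, 906 and 772 CPM in AML 1 to 3, a log2 fold change of -0.86 ± 0.36 (SE). Without AML 1 it was -1.46 with an edgeR quasi-likelihood adjusted p of 0.00701. Per1, a core clock gene, measured 84.0, 112 and 106 CPM in healthy 1 to 3 and 84.5, 40.2 and 41.6 CPM in AML 1 to 3. Nr1d1, which encodes the receptor REV-ERB alpha, a known repressor of Nfil3, was at 3.10 CPM in AML 2 and 5.02 CPM in AML 3, against 3.91 to 5.31 CPM in healthy libraries and 9.92 CPM in AML 1. Dbp and Tef, which bind the same DNA sites as Nfil3 and activate, had log2 fold changes of -0.16 and -0.12. Of 16 tested clock genes 10 had a negative fold change and 0 passed by edgeR quasi-likelihood. At an unadjusted p under 0.05 there were 3, namely Bhlhe40, Per1 and Ciart, all lower in AML, against 3.75% of all genes in that direction. The labels do not give the hour at which cells were taken. Immediate early genes, which stimulation of a cell induces, had a negative fold change for 19 of 21, as had 5986 of all 12469 genes. At an unadjusted p under 0.05 there were 7 lower, against 3.75% of all genes, and 2 higher, against 5.08%. Their sum was 22220 to 28555 CPM in healthy and 21014, 20467 and 18086 CPM in AML 1 to 3. Within that list Nr4a1 split the AML libraries as Nfil3 did, with 723 CPM in AML 1 and 173 and 147 CPM in AML 2 and AML 3. The part of cell stimulation in the Nfil3 difference was not tested. The lists of clock and immediate early genes were added after the values of Nfil3 were seen.

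**Figure D3:**
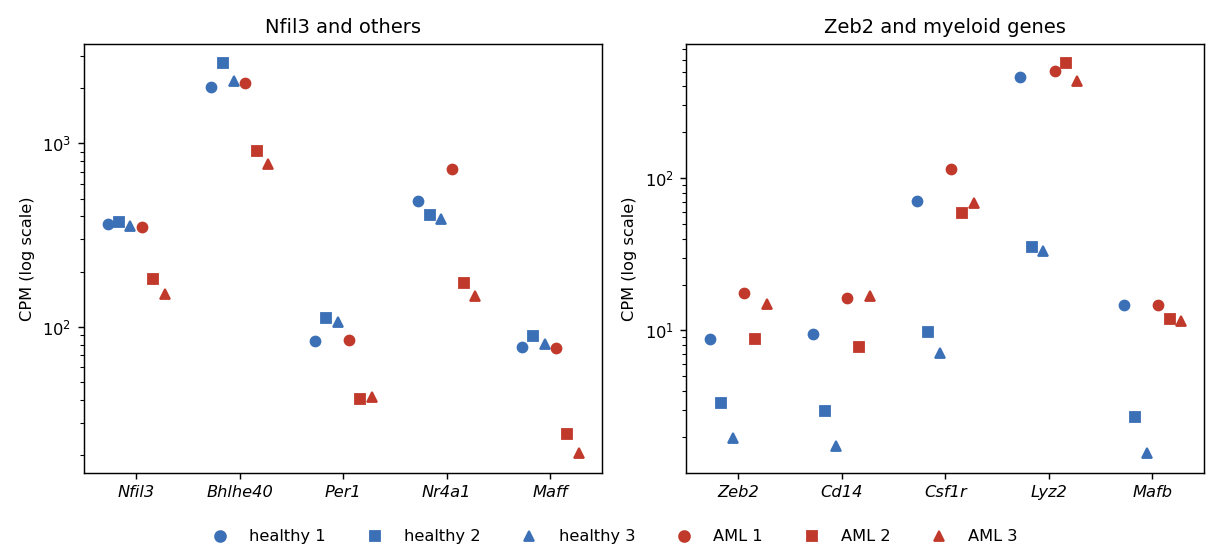
CPM on log axes in the 6 libraries (blue healthy, red AML; circles, squares and triangles are libraries 1, 2 and 3) for Nfil3 with 4 genes of stimulation or the clock, and for Zeb2 with 4 myeloid genes. In the left panel AML 2 and AML 3 lie below the other 4 libraries for every gene, and in the right panel healthy 2 and healthy 3 do.

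Tox, a high mobility group factor needed for innate lymphoid development, measured 156, 180 and 168 CPM in healthy 1 to 3 and 187, 182 and 189 CPM in AML 1 to 3. Every AML library lay above every healthy one, by little in the case of AML 2 and healthy 2. The fitted log2 fold change was 0.15 ± 0.08 (SE), with an interval from -0.03 to 0.32 and an edgeR quasi-likelihood adjusted p of 0.590. The AML libraries agreed within 1.04-fold. Tox2 had no read in any library and Tox3 at most 0.0203 CPM. Tox4, a relative expressed in most cells, measured 120 to 149 CPM in healthy and 95.2 to 139 CPM in AML libraries.

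Zeb2 had the largest fold difference of the factors and the lowest level. It measured 8.83, 3.32 and 1.95 CPM in healthy 1 to 3, from 436, 165 and 94 reads, and 17.6, 8.78 and 14.9 CPM in AML 1 to 3, from 822, 459 and 707 reads. Healthy 1 lay just above AML 2, so the groups overlapped. The log2 fold change was 1.55 ± 0.54 (SE), with an interval from 0.29 to 2.80, an unadjusted p of 0.022 and an edgeR quasi-likelihood adjusted p of 0.497. Without healthy 1 it was 2.38, at an adjusted p of 0.0626, and 0.697% of all genes were called. Without both healthy 1 and AML 1 it was 2.16 with an adjusted p of 0.0158, and over the 16 alternatives the adjusted p ran from 0.0158 to 0.816. Its relative Zeb1, known from T cells, measured 27.2 to 37.9 CPM in healthy and 32.2 to 35.0 CPM in AML libraries, with a log2 fold change of 0.02 ± 0.13 (SE). Zeb1 exceeded Zeb2 per kilobase by 5.53, 18.4 and 34.9 times in healthy 1 to 3 and by 3.57, 6.85 and 3.89 times in AML 1 to 3. The log2 ratio of Zeb2 to Zeb1 differed by 1.74 between the groups, with an exact permutation p of 0.2, where the smallest possible is 0.1.

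Macrophages, monocytes and dendritic cells also express Zeb2. The summed markers of macrophages and monocytes were higher in the 4 libraries where Zeb2 was higher, healthy 1 and the AML libraries. The summed dendritic cell markers stood at 970, 932 and 973 CPM in healthy 1 to 3. In the authors' deposited table Itgax was the most abundant of these, at a log2 CPM of 9.52 against 7.55 for Cd74, with a log2 fold change of -0.05. The dendritic sum therefore says little about the other dendritic genes in healthy 1. All 14 tested genes of the 16 macrophage and monocyte markers had a positive fold change, and 7 were higher at an unadjusted p under 0.05, against 5.08% of all genes. Their sum was 593, 75.6 and 68.6 CPM in healthy 1 to 3 and 734, 728 and 682 CPM in AML 1 to 3. In this sum healthy 1 lay near the AML libraries. Lyz2 was the most abundant of the markers found in the authors' deposited table, at a log2 CPM of 8.41 against 5.80 for Csf1r. The sum therefore says little about the other markers. For 6 of the 14 tested markers every AML library lay above every healthy one, healthy 1 included, against 8.2% of all genes. Marco was at 0 in 4 of the 6 libraries, and Timd4, a marker of resident Kupffer cells, was below 1 CPM in all. The gene closest to Zeb2 over the 6 libraries was Cd14, a monocyte receptor, with a Pearson correlation of 0.995 among 9300 genes, followed by Sft2d1 at 0.994, Dstn at 0.989, Pfkfb4 at 0.987 and Ctss, the protease cathepsin S, at 0.985. Cd14 measured 9.42, 2.96 and 1.74 CPM in healthy 1 to 3 and 16.3, 7.75 and 16.9 CPM in AML 1 to 3. In these bulk libraries more cells of a type and more RNA per cell cannot be told apart, and the part of myeloid RNA in the Zeb2 difference was not tested. The antisense gene Zeb2os shares exon bases with Zeb2 and had at most 21 reads in a library, and reads of the 2 genes cannot be told apart where they overlap, since the libraries carry no strand.

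Of 8 genes of late NK cell maturation, which Zeb2 promotes in NK cells, 7 were tested and 0 passed by edgeR quasi-likelihood. The median log2 fold change was -0.03, with 3 positive and 4 negative. At an unadjusted p under 0.05 Gzmb and Gzma, granzymes B and A, were lower, against 3.75% of all genes, and Ly6c2 was higher, against 5.08%. Gzmb measured 8062, 8107 and 7047 CPM in healthy 1 to 3 and 5319, 6824 and 5447 CPM in AML 1 to 3. Ly6c2, which inflammatory monocytes also express, measured 23.5 to 25.6 CPM in healthy and 54.9, 40.5 and 26.6 CPM in AML 1 to 3. Klrg1, a receptor of mature NK cells, had a log2 fold change of -0.03 ± 0.26 (SE). Without healthy 1 the median of the list was 0.28, and Cx3cr1, a chemokine receptor that monocytes share, passed with a log2 fold change of 2.27 and an adjusted p of 0.0137.

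**Figure D4:**
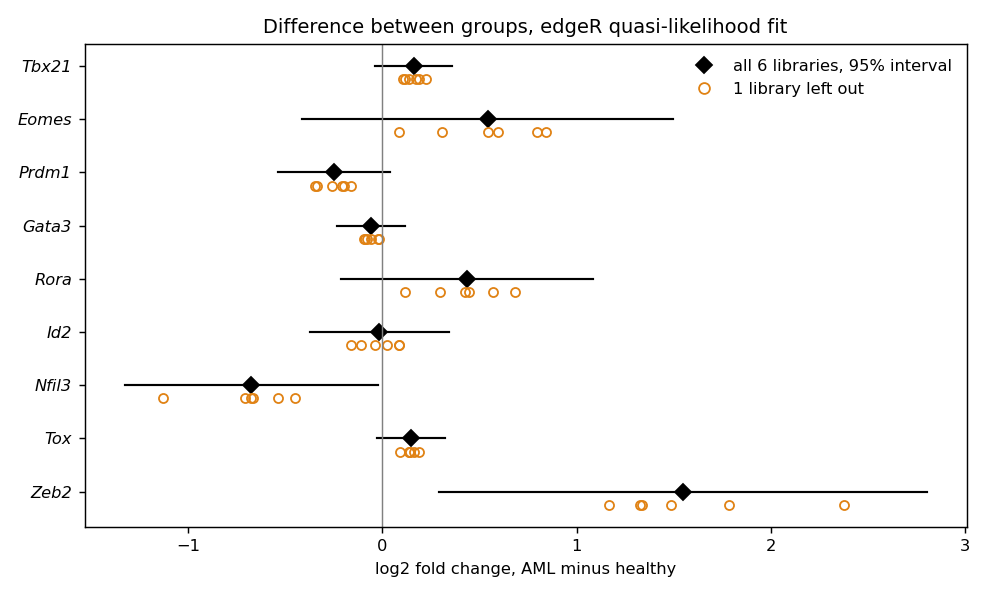
Log2 fold change of each factor, AML minus healthy, with all 6 libraries (diamond, 95% interval) and with 1 library left out at a time (open circles). The intervals of Nfil3 and Zeb2 exclude 0 before adjustment, and the circles of Eomes and Rora spread the most beside those of Nfil3 and Zeb2.

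Genes that T-bet or Eomes are known to activate had mostly negative differences, none of them past the test. All 20 on the list were tested, and 16 had negative values, the median being -0.21. None passed by edgeR quasi-likelihood, and at an unadjusted p under 0.05 there were 8 lower, against 3.75% of all genes, and 1 higher, against 5.08%. Their summed level was 31940 to 34472 CPM in healthy and 24482 to 28103 CPM in AML libraries, which do not overlap. The T cell markers were lower without overlap as well, at 1371 to 1692 CPM in healthy and 979 to 1351 CPM in AML libraries, nearly all of it from Cd3g, which NK cells also transcribe. Of the other T cell genes on that list, Cd3d, Cd3e, Cd4, Cd8a and Cd8b1, none had more than 39.6 CPM in a library. Trac, Trbc1 and Trbc2 were also listed but were not found by symbol in the count table, so only 6 of the 9 were read. Immediate early genes were negative for 19 of 21. The part of these in the differences was not tested. The lowest p belonged to Gzmb, Il18rap and Ccl4. Il18rap, a chain of the interleukin 18 receptor, was the one higher in AML, at 121, 127 and 136 CPM in healthy 1 to 3 and 164, 145 and 179 CPM in AML 1 to 3. Ccl4, a chemokine, measured 2499, 4315 and 3681 CPM in healthy 1 to 3 and 2477, 1736 and 1379 CPM in AML 1 to 3. AML 1 lay just under healthy 1, the lowest of its group. By DESeq2 2 of the 20 passed, Ccl3 and Gzmb, both lower, where it called 1.15% of all genes. In the authors' deposited table Ccl3 and Ccl4 had an FDR of 0.0288 and 0.00731, with log2 fold changes of -0.71 and -0.90. Without both healthy 1 and AML 1, 4 passed by edgeR quasi-likelihood, Ccl3, Ccl4, Fasl and Ifng, all lower, where 3.54% of all genes were called.

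A wider list held 39 other transcription factors known from ILC and NK cells, of which 38 were tested. The difference was positive for 23 and negative for 15, the median being 0.02, and edgeR quasi-likelihood called 0. At an unadjusted p under 0.05 there were 3 higher, against 5.08% of all genes, and 1 lower, against 3.75%. They were Id3, Tcf7 and Tcf4, and Bhlhe40. The most abundant by CPM were Bhlhe40 and Ets1, with Bhlhe40 ahead in every library but AML 2 and AML 3. Ets1 stood at 1226 to 1326 CPM in healthy and 1271 to 1342 CPM in AML libraries. Runx3, a partner of T-bet, and Stat4, which relays interleukin 12, had log2 fold changes of 0.01 ± 0.08 and 0.07 ± 0.08 (SE). Their 95% intervals ran from -0.18 to 0.20 and from -0.11 to 0.25. Runx2 was the gene closest to Eomes of all 9300 compared, with a Pearson correlation of 0.996 over the 6 libraries. It measured 9.04, 11.6 and 12.8 CPM in healthy 1 to 3 and 16.8, 13.5 and 10.2 CPM in AML 1 to 3. The next closest to Eomes were Azin1 at 0.983, Kif1b at 0.979, Lpgat1 at 0.977 and Trim33 at 0.971. Closest to Tbx21 were Chmp7 and Trafd1 at 0.989, Atp5s at 0.985, Cebpg at 0.984 and Creb1 at 0.982. With only 6 libraries in 2 groups such values are a description of these libraries.

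**Figure D5:**
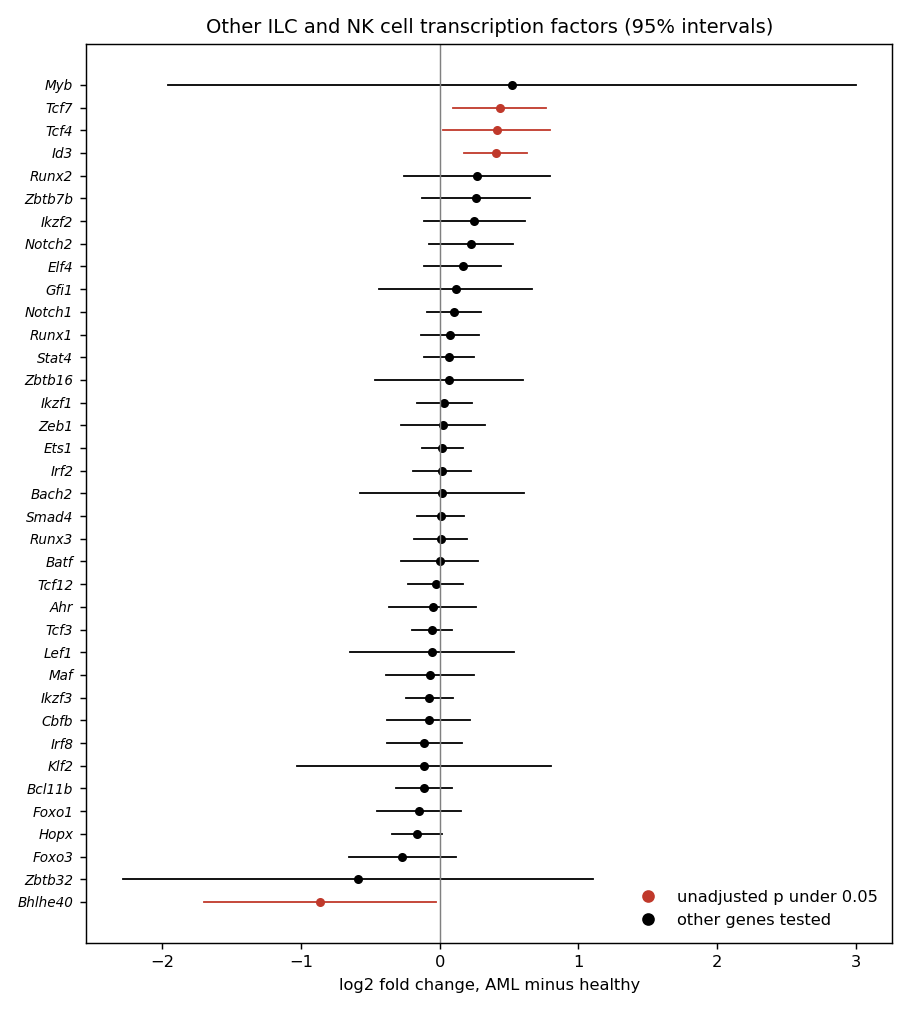
Log2 fold change, AML minus healthy, of other factors tested, with 95% intervals (horizontal axis in log2 units, red for an unadjusted p under 0.05). Tcf7, Tcf4 and Id3 lie to the right of 0 and Bhlhe40 to the left, while most intervals include 0.

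The 250 bases before the start site were read for 8 factors, all but Tox and Zfp683, from RefSeq on GRCm38.p6 and searched on both strands for sites that the factors themselves bind. The letters searched were AGGTGTG for T-box factors, CACCTG for ZEB factors, TTATGTAA for Nfil3, AGATAA for GATA factors, AGGTCA for ROR receptors and the palindrome CACGTG for clock and MYC-type factors. The T-box and ZEB letters can overlap. Of 32851 windows of the same length, 5.1%, 17.2%, 0.819%, 9.99%, 14.0% and 6.02% held these letters, in that order. A match was found before the start of Nfil3, Tbx21 and Prdm1, and the windows are shown because they place letters of one factor of this set beside another. For Nfil3 it was the ROR letters, read as TGACCT, at -12 to -7 from the start. For Tbx21 and Prdm1 it was the ZEB letters, read as CAGGTG, at -196 to -191 and at -87 to -82. Prdm1 is read at an internal start, at position 44458748, and the Zeb2 windows held no match. A match describes the letters and is no evidence of binding. Each is printed in the direction of transcription, on the minus strand, with the match in capitals.
Nfil3 chr13:52981040-52981289: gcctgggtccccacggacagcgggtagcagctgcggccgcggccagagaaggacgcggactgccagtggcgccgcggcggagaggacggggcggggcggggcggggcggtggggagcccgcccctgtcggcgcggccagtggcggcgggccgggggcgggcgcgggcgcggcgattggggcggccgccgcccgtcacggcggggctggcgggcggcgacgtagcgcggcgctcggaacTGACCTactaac
Tbx21 chr11:97115332-97115581: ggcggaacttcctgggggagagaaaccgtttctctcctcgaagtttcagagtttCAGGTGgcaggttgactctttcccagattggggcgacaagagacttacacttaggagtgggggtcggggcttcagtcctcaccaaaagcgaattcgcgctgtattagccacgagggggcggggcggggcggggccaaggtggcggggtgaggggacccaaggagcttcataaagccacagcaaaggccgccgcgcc
Prdm1 chr10:44458749-44458998: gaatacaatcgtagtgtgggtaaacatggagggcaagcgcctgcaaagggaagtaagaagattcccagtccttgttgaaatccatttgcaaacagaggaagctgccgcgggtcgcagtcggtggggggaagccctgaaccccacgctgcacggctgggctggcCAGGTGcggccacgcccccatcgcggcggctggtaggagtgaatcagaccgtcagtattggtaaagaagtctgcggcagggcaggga

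In mm10, the mouse build in the submitters' processing notes, the count table places the factors as follows. Tbx21 lies on chromosome 11 at 97098007 to 97115331, Nfil3 on chromosome 13 at 52967209 to 52981039, Id2 on chromosome 12 at 25093799 to 25096092 and Zeb2 on chromosome 2 at 44983512 to 45117395, all on the minus strand. Prdm1 on chromosome 10 at 44437174 to 44528501, Gata3 on chromosome 2 at 9857078 to 9878600 and Tox on chromosome 4 at 6687386 to 6991557 are on the minus strand too. Eomes at 118478189 to 118486132 and Rora at 68653786 to 69388246 are both on the plus strand of chromosome 9. In the GENCODE M21 annotation, antisense genes share exon bases with Eomes, Gata3, Rora, Tox and Zeb2, so their counts may hold reads of the opposite strand. Gata3 also shares exon bases with 9230102O04Rik on its own strand. No other gene shares exon bases with Tbx21, Prdm1, Id2 or Nfil3.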

How the data were processed

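Per the labels' protocols, 2 ng of total RNA per library was amplified with a poly(A)-primed SMART-Seq kit and sequenced unstranded as single reads of 51 cycles. Tools in the submitters' processing notes are HTSeq 0.6.0, STAR 2.6.0, edgeR 3.28.1 and bcl2fastq 2.18.0.12, and the builds are mm10 and hg19, with no role given for any. The authors deposited raw read counts per gene with gene length, and a table of their comparison of the groups. The latter holds, per the file headers, log2 fold changes, the score of a likelihood ratio test, and each p-value before and after FDR adjustment. The authors' values per library in it are RPKM from these counts up to a nearly constant factor, as both tables show, and were not used.

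Columns were matched to samples by description, and groups taken from titles. No 2 libraries were alike within sampling noise. AML was compared with healthy with edgeR 4.0.16 under R 4.3.3, by its quasi-likelihood test (TMM, filterByExpr with a minimum count of 10, group only, two-sided, Benjamini-Hochberg over 12469 genes). SE is the log2 fold change over the square root of F. Ratios within libraries used a pseudocount of 0.5 reads and exact permutation tests. Over 4 ratios the adjusted p was 0.4 to 0.6, and a planned ratio with Zfp683 was not run. Simulated data with the real means gave 60% and 72% recovery for log2 changes of 1 and 2, over 12225 genes. Alternatives were other size factors, filters, tools (DESeq2 1.42.0, limma 3.58.1), the replicate number as a block, and left-out libraries. The genes named are the 9 factors, their relatives, the 3 with the smallest p of each list and the 5 closest in pattern to Tbx21, Eomes and Zeb2, and others named were chosen after their values were seen. The members and lists were chosen with earlier results of these data known. Some genes of the lists are not reported here, and counts and medians of lists include them.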

Additional observations from a re-analysis of the deposited data

How the results depend on the processing

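The number of factors past the edgeR quasi-likelihood threshold was 0 under all alternatives that kept every library, 0 to 1 with 1 library left out (Nfil3 without AML 1) and 2 without both healthy 1 and AML 1 (Nfil3 and Zeb2). Over all genes it was 0 with all libraries, 1 with upper quartile size factors, 2 with no filter, 1 with the stricter filter, 143 by DESeq2, 100 by the likelihood ratio test, 444 without both libraries and 0 to 147 with 1 left out. The log2 fold change of Id2 changed sign, to 0.00602 with upper quartile factors, and ran from -0.164 to 0.0871 with 1 library left out, positive without healthy 2, healthy 3 or AML 1. Without healthy 1 and AML 1, Eomes and Rora changed sign, to -0.144 and -0.017. With 1 library left out the difference in the Tbx21 to Eomes ratio ran from -0.666 to 0.0834, positive without AML 1. Of the gene lists, without both libraries 1 of the other factors passed, 4 T-bet and Eomes targets, 1 egress gene, 1 maturation gene and 1 E protein target. By DESeq2 2 of the targets and 1 maturation gene passed. With 1 library left out each of these lists had 0 to 1. Medians moved for maturation genes, to 0.20 with no filter, 0.27 without both libraries and -0.18 to 0.28 with 1 left out. They also moved for E protein targets, to 0.23 without both, for Gata3 and Rora targets, to 0.0019 without both, and for T-bet and Eomes targets, -0.26 to -0.13 with 1 left out. The median of the egress list ran from 0.18 to 0.714 with 1 left out and was 0.229 without both. The Gata3 to Rora, Id2 to Id3 and Zeb2 to Zeb1 differences ran from -0.702 to -0.192, from -0.533 to -0.269 and from 1.14 to 2.47 with 1 left out. The cause was not tested, except that leaving out libraries means fewer samples. With the replicate number as a block the test called 0 genes, and Nfil3 and Zeb2 had log2 fold changes of -0.78 and 1.75 at adjusted p of 0.335 and 0.325. The labels do not say whether equal numbers pair the libraries. Deviations of equal numbers correlated at 0.13, -0.05 and 0.16, and those of unequal numbers at -0.21 to 0.08, with healthy 2 closer to AML 1. With 3 libraries a group these values cannot decide whether the libraries are paired. The order of the factors was the same in TPM. At this depth Zeb2 rests on 94 to 822 reads a library and Eomes on 245 to 799.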
